A study of Mus musculus with 10 samples.

Results

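Cd44, Sox9, Sox4, Slc12a2 and Ets2 are genes of the progenitor compartment of the mouse small intestinal crypt, and their transcripts were followed through 3 ways of weakening R-spondin signalling. The genes were taken by name, as every array probe whose gene name is one of these 5, whatever that probe read. They were 5 of 27827 named genes on the array and were read by 9 of its 41174 probe sequences. Expression was measured on 10 Agilent arrays, each hybridised with a pair of RNAs in the dyes Cy5 and Cy3, and all samples were taken at day 1.

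Crypts came from the small intestine of mice with Lgr4 and Lgr5 deleted and from wild type control mice. The series names the deleted line AhCre_Lgr4fl/fl_Lgr5 fl/fl, and the labels name the inducible Cre P450Cre. The promoter of this Cre responds to xenobiotics, and the labels do not say whether the control mice received the inducer. The 2 biological replicates were each hybridised to a pair of arrays with the dyes exchanged, deleted and wild type RNA side by side on 1 array. Organoids, small intestinal epithelium grown in culture with EGF, Noggin and R-spondin, carried VillinCre, which is active in the intestinal epithelium. The deleted cultures came from VillinCre_Lgr4fl/fl-Lgr5fl/fl mice (n = 2) and the wild type cultures from VillinCre_wt mice (n = 2), the latter labelled as tamoxifen-induced for 1 day. A further organoid culture was kept without R-spondin (EN) for 1 day after splitting, and another with it (ENR), n = 1 each. Neither the sex nor the age of the animals is given in the labels. Organoid RNA was in Cy5 and a commercial mouse reference RNA in Cy3. The labels call the repeats biological replicates and do not say whether they came from separate mice, so the p-values measure the spread between these samples.

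Lgr4 and Lgr5 are receptors for R-spondins, secreted proteins that raise the response of a cell to Wnt. In that response, beta-catenin enters the nucleus and activates genes together with TCF and LEF factors. In the crypt this programme keeps stem cells and their dividing progeny undifferentiated. Cd44 is a receptor for hyaluronan on the surface of crypt base cells and a classical Wnt target. Sox9 and Sox4 are transcription factors of the SRY-related family. Sox9 is a Wnt target needed for Paneth cells, and Sox4 is active in early progenitors. Ets2 is a transcription factor of the ETS family that acts downstream of growth factor signalling and is enriched in crypt stem cells. Slc12a2, also known as NKCC1, brings sodium, potassium and chloride into the cell across the basolateral membrane and feeds chloride secretion. In bulk samples such as these, fewer cells of a type and less RNA per cell cannot be told apart.

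Probes of both targeted genes were lower where these were labelled as deleted. In crypts Lgr5 differed by -1.69 and Lgr4 by -1.56 (log2, deleted minus wild type). In organoids an Lgr4 probe (A_52_P276727) read 11.0 and 11.63 in wild type and 7.33 and 8.16 in deleted cultures (log2 Cy5 level). Another Lgr4 probe, A_52_P278566, was not lower, at 0.14 in deleted organoids (limma adjusted p = 0.994) and 0.21 and 1.09 in the crypt replicates. The 2 crypt replicates were not equally clean. Over 16608 probes, the log2 ratios of the dye-exchanged arrays had a correlation of 0.347 within replicate 1 and 0.92 within replicate 2, as a description across probes that share arrays. On the 4 arrays of the organoid deletion, the reference RNA in Cy3 stood apart, with negative control spots (medians 5883 to 6564) brighter than the gene spots (1830 to 1933). Deleted and wild type organoids were therefore compared in Cy5 alone, with the ratio to Cy3 as an alternative.

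Cd44 and Sox9 each had 3 probes of 60 bases, and these did not read alike, so the first 30 bases of each are given here, 5′ to 3′, as the array design lists them. Capitals are not used because no part of a probe is singled out. A number after the probe name is its start in the transcript.
Cd44 A_52_P523459, start 5225: gccaattgcttaggtatgtacaatgagttt
Cd44 A_52_P229536, start 3985: cactgggatcttatcatcagataagcaggt
Cd44 A_51_P407053, start 1851: tcatagtacaacccttcagcctactgcagc
Sox9 A_52_P214630, start 3883: ataaaaccttaaagcgttcttataatatgg
Sox9 A_52_P577484, start 2082: ttccaggagagagactttaagactttgtct
Sox9 A_51_P451606, start 786: actctgggcaagctctggaggctgctgaac
The first Cd44 and the first Sox9 probe are printed at 10 spots on each array, and every other member probe at 1 spot. In both genes the probe nearest the 5′ end was the dim one. Cd44 A_51_P407053 is listed for fewer RefSeq transcripts than the other Cd44 probes. Its Cy5 signal of 112.5 to 125.5 in the 4 organoid deletion cultures was not well above background. Sox9 A_51_P451606 has coordinates in the array file that span 853 bases for its 60, and its Cy5 signal there was 120 to 139.5, well above background in 1 of the 4 cultures. Neither was tested for the deletion. Sox4 had 1 probe (A_51_P105178), Slc12a2 had A_51_P275527 and Ets2 had A_52_P658122.

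RefSeq promoter sequence was matched for Cd44, Sox4 and Ets2. The 250 bases before the transcript start that the promoter table uses were searched on both strands for the TCF/LEF heptamer, which is CTTTG followed by AA or AT or TA or TT. None of the 3 promoters held one, against 14.8% of 32851 promoters of that length and 6 of 28 promoters of other Wnt target genes. The shared core CTTTG, or its complement CAAAG, occurred once in Cd44 and not in Sox4 or Ets2. Of all promoters, 48.6% held this core. The Cd44 and Sox4 windows are shown to compare a promoter with the core, in capitals, and one without it, both on the minus strand of GRCm38.p6 and read towards the gene. The last 4 bases of the Cd44 window lie within the outer bounds of the annotated gene.
Cd44, chr2:102901666-102901915: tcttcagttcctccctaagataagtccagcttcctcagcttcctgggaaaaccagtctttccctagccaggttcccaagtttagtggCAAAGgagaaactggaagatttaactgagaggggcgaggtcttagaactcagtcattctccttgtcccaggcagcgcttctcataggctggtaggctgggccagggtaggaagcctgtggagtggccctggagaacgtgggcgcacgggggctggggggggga
Sox4, chr13:28953700-28953949: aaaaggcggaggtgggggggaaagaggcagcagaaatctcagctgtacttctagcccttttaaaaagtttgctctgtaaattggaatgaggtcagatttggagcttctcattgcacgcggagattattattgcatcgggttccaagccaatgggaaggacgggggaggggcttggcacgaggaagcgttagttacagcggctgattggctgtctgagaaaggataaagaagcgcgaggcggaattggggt
A match is a description of the letters in this window only.

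Cd44 lies at chr2:102811141-102901669, Sox9 at chr11:112782210-112787757, Sox4 at chr13:28948919-28953699, Slc12a2 at chr18:57878512-57946821 and Ets2 at chr16:95702407-95721049 (GRCm38, RefSeq).

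In crypts, transcripts of all 5 genes were lower on average 1 day after deletion of Lgr4 and Lgr5, by 1.20-fold for Ets2 to 3.02-fold for Slc12a2, and none of these differences passed the test across all probes. Of the 9 probes 7 were bright enough to be tested, and all 7 had a mean log2 ratio below 0 in both replicates. Of these, 6 were below 0 on each of the 4 arrays. Over all probes with a value on every array, 17.2% were below 0 on all 4. With limma and Benjamini-Hochberg adjustment over 16557 probes, 0 of the 7 member probes had an adjusted p under 0.05. That threshold was passed by 0.00604% of all probes for lower and 0.0544% for higher expression. At an unadjusted p under 0.05, 6 of the 7 member probes were lower, against 7.18% of all probes. The median difference of the 7 probes was -1.23, against -0.03 over all probes tested (log2).

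Cd44, the hyaluronan receptor, differed in size between its probes. The brightest, A_52_P229536, gave log2 ratios of -1.35 and -0.58 on the arrays of replicate 1 and -1.64 and -1.90 on those of replicate 2. All 4 arrays were below 0, and replicate 2 was lower than replicate 1. The mean was -1.37 (SE 0.276, n = 2, limma adjusted p = 0.167), which is 2.58-fold lower. A_52_P523459 gave -0.39, -0.75, -0.64 and -0.49 in the same order, with a spread between its 10 spots of 0.04 to 0.21 (SD) on an array. Its arrays agreed more closely than those of the brighter probe, at a smaller mean of -0.56 (SE 0.228, limma adjusted p = 0.383). The 95% intervals, -2.03 to -0.71 and -1.11 to -0.02, overlapped.

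Sox9, the transcription factor of the stem and Paneth cell zone, was lower on both of its bright probes. A_52_P577484 read -0.78 and -1.28 in replicate 1 and -1.38 and -1.48 in replicate 2 (log2 ratio, deleted over wild type). The mean was -1.23 (SE 0.241, n = 2, limma adjusted p = 0.156). A_52_P214630, with 10 spots, read -0.69 and -1.04 in replicate 1 and -2.02 and -1.79 in replicate 2. Here replicate 2 lay well below replicate 1, and the mean was -1.39 (SE 0.305, limma adjusted p = 0.192), 2.61-fold lower.

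Sox4, the progenitor factor, read -0.62 and -0.36 in replicate 1 and -1.15 and -1.30 in replicate 2. Its mean was -0.86 (SE 0.269, n = 2, limma adjusted p = 0.313). Ets2 was the member nearest to 0. Its log2 ratios were 0.06 and -0.74 in replicate 1 and -0.12 and -0.23 in replicate 2, so 1 of the 4 arrays was above 0. The mean of -0.26 had a 95% interval of -0.81 to 0.29 (SE 0.23, limma adjusted p = 0.65).

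Slc12a2, the chloride-loading cotransporter, had the lowest mean among the 7 tested probes. It read -0.92 and -2.0 on the arrays of replicate 1, and -1.69 and -1.76 on those of replicate 2. The dye-exchanged arrays of replicate 1 lay apart while those of replicate 2 were close. The mean was -1.59 (SE 0.234, n = 2), 3.02-fold lower, with a limma adjusted p of 0.0856 and rank 63 by p among all probes. With the 4 arrays fitted separately and the slide, which is also the replicate, as a random block, the limma adjusted p was 0.00692 for Slc12a2, 0.00998 and 0.0131 for the Sox9 probes and 0.0149 for Cd44 A_52_P229536. In that fit of 14235 probes, 1.64% of all probes were called lower and 2.27% higher. It takes the 4 arrays as correlated repeats rather than as 2 replicates.

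**Figure D1:**
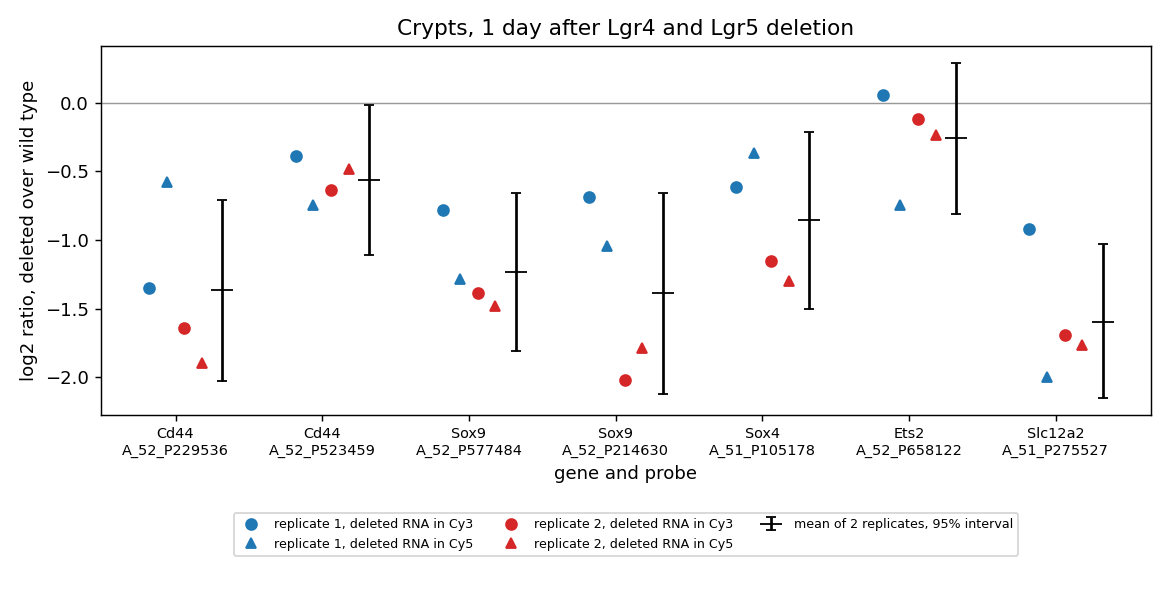
Log2 ratio of deleted over wild type crypts for the 7 tested probes, with 1 point per array (colour for replicate, shape for the dye of the deleted RNA) and the mean of the 2 replicates with its 95% interval beside them. The points lie below 0 except for 1 Ets2 array at 0.06, and Slc12a2 has the lowest mean at -1.59.

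In organoids, deletion of the receptors was accompanied by lower Cy5 levels of Slc12a2 (5.26-fold) and Sox9 (3.85-fold and 3.42-fold), and by smaller differences in Cd44, Sox4 and Ets2. The question was the same as in crypts, in cultures that hold epithelium. All 7 tested probes were lower in both deleted cultures than in both wild type cultures, without overlap. Over 18648 probes tested, 17.5% were separated in that direction. In the limma comparison without a block, 0 of the 7 had an adjusted p under 0.05, a threshold passed by 0.0107% of all probes for lower and 0.0268% for higher levels. At an unadjusted p under 0.05, 4 of 7 were lower, against 3.8% of all probes.

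Each slide held 1 wild type and 1 deleted culture. With the slide as a block, which leaves 1 residual degree of freedom, 4 of the 7 member probes passed limma's adjusted threshold, and 1.55% of all probes were called lower and 1.26% higher. These were both Sox9 probes, Slc12a2 and Cd44 A_52_P523459. The calls on these 4 probes therefore rest on comparing cultures within slides. They also rest on the spread that limma borrows from other probes, since 1 residual degree of freedom says little about a probe's own spread. For Slc12a2 the 2 slides were far apart, at -3.19 and -1.60.

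Slc12a2 levels were 12.55 and 12.75 in the wild type cultures and 9.36 and 11.15 in the deleted cultures (normalised log2 Cy5). The wild type cultures were close together, and the deleted cultures were lower but far apart. Within slides the differences were -3.19 and -1.60. The mean difference was -2.39 (SE 0.555, n = 2 per group, limma adjusted p = 0.407), with 0.00761 when the slide was a block.

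Sox9 by A_52_P577484 read 10.69 and 11.61 in wild type and 8.64 and 9.77 in deleted cultures. Both groups were higher on the second slide, and the within-slide differences were -2.05 and -1.84. The mean difference was -1.94 (SE 0.465, limma adjusted p = 0.428), with an adjusted p of 0.00144 under the slide block. A_52_P214630 read 10.80 and 10.70 in wild type against 8.62 and 9.34 in deleted cultures. Its mean difference was -1.78 (SE 0.292, limma adjusted p = 0.207), with 0.00571 under the slide block.

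Cd44 again differed between probes, in the opposite order to crypts. A_52_P523459 read 8.39 and 8.5 in wild type and 7.11 and 7.67 in deleted cultures, a mean difference of -1.05 (SE 0.261, limma adjusted p = 0.451, and 0.0274 under the slide block). A_52_P229536 read 10.63 and 10.45 in wild type and 10.20 and 9.85 in deleted cultures. Its difference was -0.52 (SE 0.232, limma adjusted p = 0.731, and 0.182 under the slide block). In crypts the brighter probe had the larger difference, and in organoids it had the smaller one. That change of order between the tissues was not tested.

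Sox4 read 9.57 and 9.37 in wild type and 8.72 and 9.14 in deleted cultures, and differed by -0.54 (SE 0.243, limma adjusted p = 0.731). Ets2 read 11.69 and 12.08 in wild type and 11.17 and 11.55 in deleted cultures, and differed by -0.53 (SE 0.256, limma adjusted p = 0.763). Neither gene passed under the slide block (limma adjusted p = 0.214 for Sox4 and 0.168 for Ets2). The Ets2 differences were the same on both slides to 2 decimals, at -0.53.

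By the ratio to the Cy3 reference the differences were -1.59 for Slc12a2, -1.02 for Sox9 A_52_P577484 and -0.31 for Ets2, and close to 0 for Sox9 A_52_P214630 (-0.01), Cd44 A_52_P523459 (-0.02) and Cd44 A_52_P229536 (0.01). For Sox9 A_52_P214630 the raw Cy5 signal was 1800 and 1577 in wild type against 420 and 780 in deleted cultures. Its raw Cy3 signal stayed between 1555 and 1738 on the same 4 arrays. Sox4 has no ratio value because its Cy3 spot was marked as an outlier on a wild type array.

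**Figure D2:**
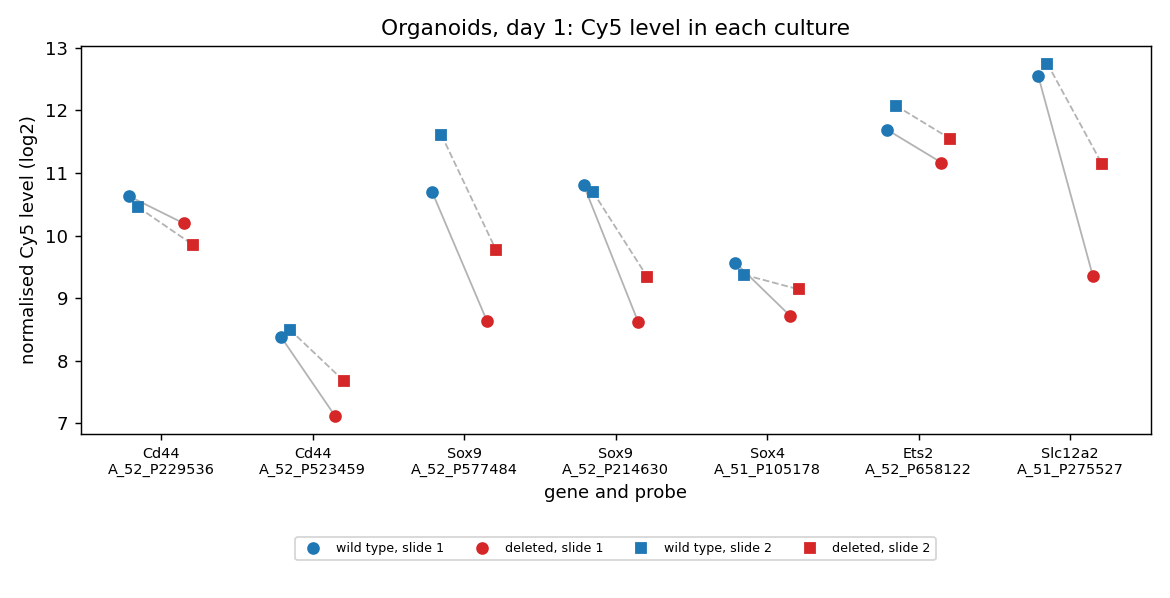
Normalised Cy5 level (log2) of the 7 tested probes in the 2 wild type and 2 deleted organoid cultures, with lines joining the cultures of 1 slide. Every line runs downwards from wild type to deleted, steepest for Slc12a2 on slide 1 (-3.19).

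Without R-spondin, Slc12a2, Sox9, Sox4 and Cd44 were lower than in the culture with R-spondin, by 4.79-fold for Cd44 A_52_P523459 to 13.4-fold for Slc12a2. The brighter Cd44 probe, A_52_P229536, had a marked spot and gave a smaller difference of -1.09 (log2) when that spot was kept. There was 1 array on each side, so these differences have no replicate check and no test. They are differences in the log2 ratio to the reference RNA, whose Cy3 channel was not disturbed on these arrays. Of the 9 member probes 7 gave a value, all 7 were lower without R-spondin, and 5 were past 2-fold. Over 24300 probes measured, 5.76% were past 2-fold lower and 4.22% past 2-fold higher.

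Slc12a2 had a log2 ratio of 2.37 with R-spondin and -1.38 without, a difference of -3.75 that was lower than for all but 0.0494% of probes. Its raw Cy5 signal was 8200 with and 684 without R-spondin. Sox9 A_52_P577484 read 1.43 with and -1.40 without, and A_52_P214630 read 1.83 with and -0.94 without. The 2 Sox9 probes thus gave differences of -2.83 and -2.76. Sox4 read 1.30 with and -1.05 without, a difference of -2.36. Cd44 A_52_P523459 read -2.0 with and -4.26 without, a difference of -2.26. Its 10 spots spread by 0.13 and 0.07 (SD) on the 2 arrays.

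The other member probes gave smaller or partial values. The dim probes Cd44 A_51_P407053 and Sox9 A_51_P451606 differed by -0.62 and -0.61, with raw Cy5 signals of 191 to 241. The marked spot of Cd44 A_52_P229536 was its Cy5 spot without R-spondin. Ets2 had its Cy3 spot without R-spondin marked. In Cy5 alone it read 13.36 with and 12.74 without R-spondin, a difference of -0.63 and so less than 2-fold.

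**Figure D3:**
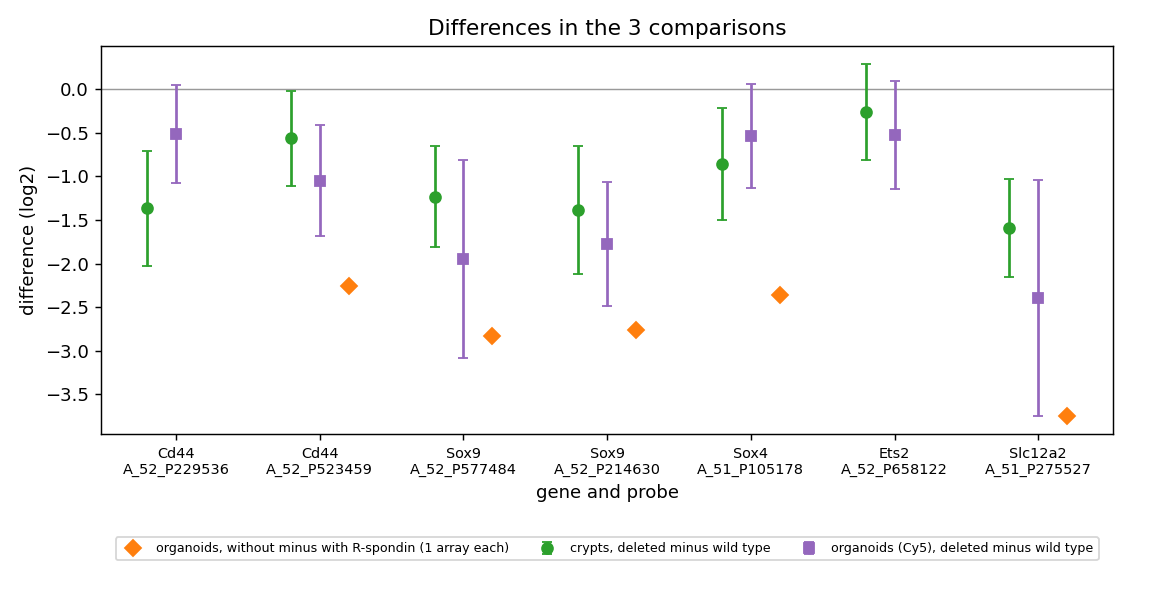
Differences on the log2 scale for the 7 tested probes in the 3 comparisons, with 95% intervals for the 2 deletion comparisons and single values for R-spondin, where Cd44 A_52_P229536 and Ets2 have no ratio. For Slc12a2 the values were -1.59 in deleted crypts, -2.39 in deleted organoids and -3.75 without R-spondin.

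Across the 6 conditions each gene's level was compared with itself only, from single channels normalised together. This is a description, because the arrays were made in different sets. Slc12a2 was highest in wild type organoids (mean 12.98, n = 2), then in the culture with R-spondin (12.69) and in wild type crypts (12.11). Deleted organoids (10.63) and deleted crypts (10.48) overlapped, and the culture without R-spondin was lowest at 8.80. Sox9 A_52_P577484 was 11.77 with R-spondin, 11.56 in wild type crypts and 11.53 in wild type organoids, of which the last 2 overlapped. It was 10.36 in deleted crypts, 9.59 in deleted organoids and 8.78 without R-spondin.

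Sox4 followed another order. It was highest with R-spondin (11.04), and next in wild type (9.85) and deleted organoids (9.31). The culture without R-spondin (8.60) lay within the range of the wild type crypts (mean 8.44), and deleted crypts were lowest at 7.61. On this scale deleted organoids still carried more Sox4 signal than wild type crypts. Crypt RNA was labelled in both dyes and organoid RNA in Cy5 only, and the part of the dye in this order was not tested. Cd44 A_52_P523459 was 9.08 in wild type crypts, 8.94 with R-spondin and 8.82 in wild type organoids, and then 8.5 in deleted crypts, 7.74 in deleted organoids and 7.0 without R-spondin. Ets2 spanned the narrowest range of these 5 probes, from 12.88 with R-spondin to 11.74 in deleted organoids. Wild type organoids (12.25), the culture without R-spondin (12.23) and wild type crypts (12.22) did not differ beyond their spread.

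**Figure D4:**
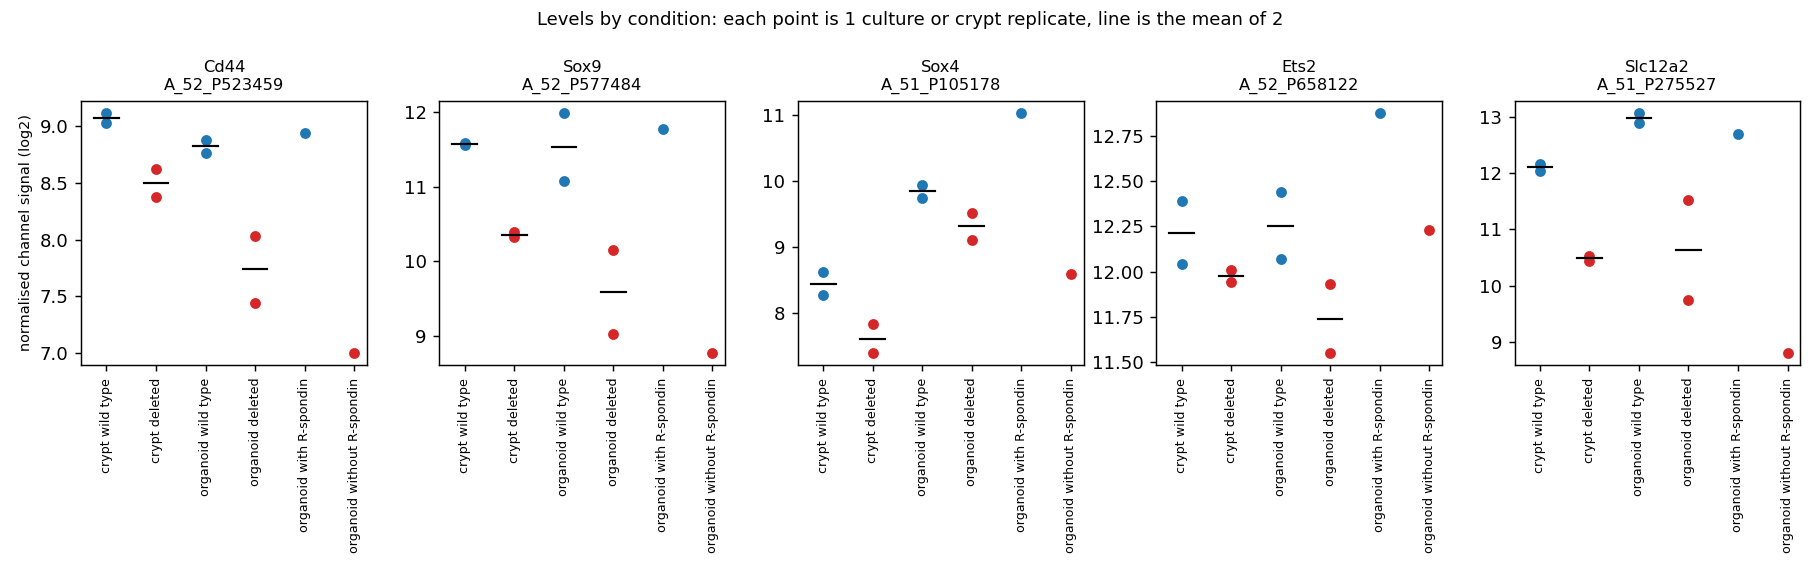
Normalised channel signal (log2, a separate axis for each gene) in the 6 conditions, with 1 point per culture or crypt replicate and a line at the mean of 2. The condition with both receptors and R-spondin lies above its perturbed partner in each of the 5 genes, by the smallest step for Ets2 in crypts (12.22 against 11.98).

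The genes most like each member were sought over 10548 genes, by the root mean square difference of 5 values: the 2 crypt replicates, the 2 organoid slides and the R-spondin difference. For Sox4 the nearest named genes were Prc1 (0.0758), Rfc4 (0.165) and Mad2l1 (0.212), where Prc1 works in cytokinesis, Rfc4 in DNA replication and Mad2l1 at the spindle checkpoint. Prc1 read -0.52, -1.10, -0.75, -0.17 and -2.35 in the order given, beside -0.49, -1.23, -0.85, -0.23 and -2.36 for Sox4. For Sox9 they were Rgmb (0.352), a co-receptor for bone morphogenetic proteins, Cdk6 (0.395), a cell cycle kinase, and Rad51b and Zfp367 (0.495 each). For Cd44 they were Tead1 (0.285), Nucks1 (0.322), Hmgb2 (0.332) and Psrc1 (0.381). The Cd44 values compared mix probes that did not read alike, with A_52_P229536 in crypts and organoids and A_52_P523459 without R-spondin. For Slc12a2 no gene was as near, with Dtl at 0.686, Sox9 itself at 0.701, Pla2g4a at 0.725 and Uhrf1 at 0.814. Ets2 could not be placed because it lacks an R-spondin ratio.

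Among 26 other Wnt target genes, most differences lay below 0 in all 3 comparisons. In crypts 22 were tested and 17 were below 0, with a median of -0.51, against 52.3% and -0.02 over all genes. Of the 22, 0 passed limma's adjusted threshold. At an unadjusted p under 0.05, 10 were lower, against 862 of 11838 genes. The lowest were Myb (-1.48), a transcription factor of progenitors, Rgmb (-1.33), the cyclin Ccnd2 (-1.05) and the receptor Tnfrsf19 (-0.83). Ccnd2 rested mostly on replicate 2, at -0.16 and -1.93 in the replicates. In organoids 20 were tested and all 20 were below 0, against 47.6% of all genes. Without the block 0 passed, and the median was -1.20 against 0.02 over all genes. Under the slide block 13 of the 20 passed as lower, against 1.55% of all probes. Among them were Axin2, a feedback inhibitor of Wnt signalling (-2.92), Rnf43 (-2.10) and Znrf3 (-1.12), ligases that remove Wnt receptors. Without R-spondin 24 of 25 were below 0, against 42.4% of all genes, with a median of -1.76 against 0.07. Of the 25, 18 were past 2-fold lower, against 5.76% of all probes.

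**Figure D5:**
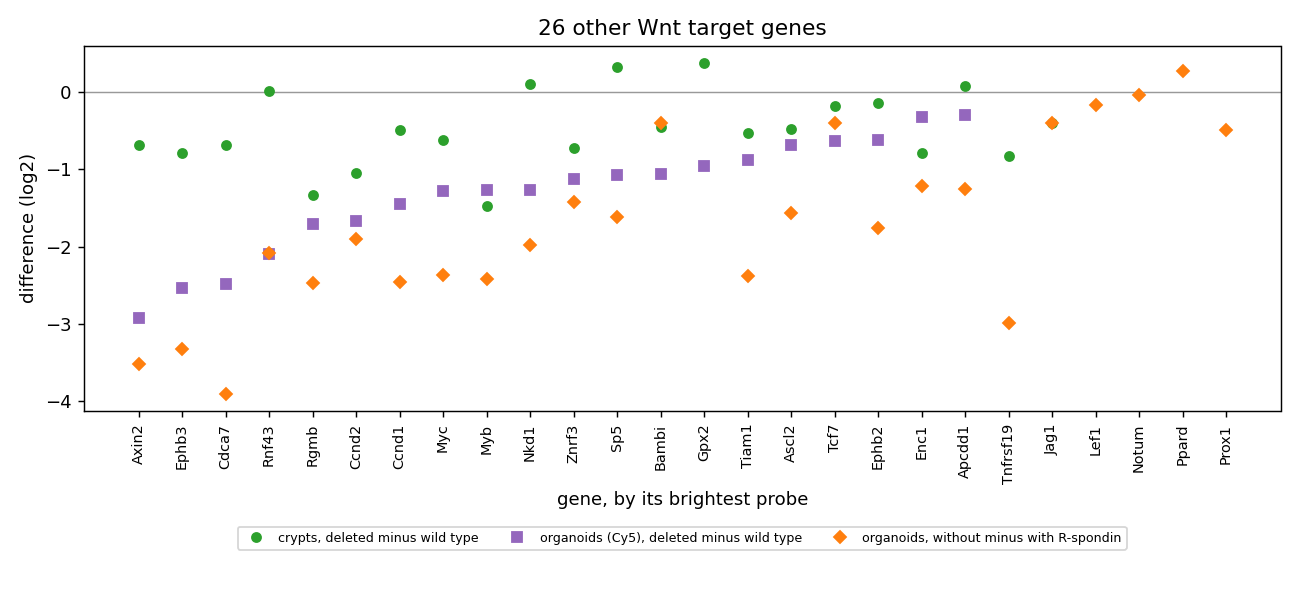
Difference (log2) of each of 26 other Wnt target genes by its brightest probe in deleted crypts, deleted organoids (Cy5) and organoids without R-spondin, ordered by the organoid difference. All 20 organoid values lie below 0, while 5 of the 22 crypt values lie above it.

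Relatives of the members were also counted. Of 17 other Sox genes 4 were bright enough in crypts, with a median of 0.07 and 0 passing (Sox15 0.27, Sox14 -0.23, Sox6 0.15, Sox21 -0.02). Of 25 other ETS genes 15 were tested in crypts and 9 were below 0, against 52.3% of all genes, with a median of -0.03 and 0 passing. The farthest from 0 were Ets1 (0.66), Elk3 (0.64), Ehf (-0.47) and Gabpa (-0.35). Of the SLC12 cotransporters besides Slc12a2, 3 were tested in crypts, all 3 were below 0 with a median of -0.14, and 0 passed. Slc12a7 read -0.14 and Slc12a9 -0.05. In organoids the medians of these families were 0.00, -0.08 and 0.08, and 0 genes passed with or without the slide block.

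Of 11 genes that work with Slc12a2 in chloride secretion, 10 were tested in crypts. Of these 8 were below 0, against 52.3% of all genes, and 0 passed. Kcne3, a potassium channel subunit that supports secretion, read -0.82, and its partner Kcnq1 -0.45. Kcnq1 rested mostly on replicate 1, at -0.85 and -0.04 in the replicates. Atp1b1, a subunit of the sodium pump, read 0.70. In organoids Kcne3 (-1.77) and Kcnq1 (-1.07) passed limma's adjusted threshold as lower under the slide block, where 1.55% of all probes did so. Without the block 0 of 11 passed. A list of 16 genes around Cd44 held enzymes of hyaluronan synthesis and breakdown, linkers to actin, splicing factors, proteases, a ligand and co-receptors. Of the 16, 10 were tested in crypts and 0 passed. The ligand Spp1 read 1.20, the binding partner Cd74 1.02, the splicing factor Esrp1 -0.63 and the protease Adam17 -0.42. Cd74 was above 0 in replicate 1 only, at 2.06 and -0.02 in the replicates. In organoids the median of this list was 0.04.

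Markers of other cells also lay away from 0 in the crypt comparison, though 0 of them passed limma's adjusted threshold in any cell type list. Over all genes tested in crypts, 52.3% were below 0. In crypts 11 of 11 tested immune cell markers were above 0 with a median of 1.72. The summed immune level was 10250 to 11700 in wild type and 35000 to 68960 in deleted crypts. Of the 12 immune markers, 10 were well above background throughout deleted and 8 throughout wild type crypts. A marker bright in 1 group only enters the test through that group, so the count above 0 was partly favoured by the filter. Endothelial markers (0 of 3) were not well above background in any crypt group. Paneth cell markers were below 0 in 7 of 7 with a median of -1.01, proliferation markers in 11 of 14 with a median of -0.32, and stem cell markers in 6 of 7 with a median of -0.71. Of the Paneth cell markers, Lyz1 (0.14), Mmp7 (0.004) and Pnliprp2 (0.15) were above 0 in replicate 2, and the others were below 0 in both replicates. Enterocyte markers were above 0 in 6 of 6, with a median of 0.59, and stromal markers below 0 in 5 of 5, with a median of -0.76. Of the stromal markers 5 were well above background throughout wild type but 2 throughout deleted crypts, so the filter favoured values below 0. The summed stromal levels overlapped, at 6643 to 7220 in wild type and 5861 to 6791 in deleted crypts. Vim (-0.85 and 0.59) and Acta2 (0.24 and -0.46) changed sign between the replicates, while Col1a2, Col3a1 and Dcn were below 0 in both. Targets of the aryl hydrocarbon receptor, a sensor of xenobiotics, were above 0 in 5 of 5 in deleted crypts, with a median of 1.56. Their summed level was 6810 to 9268 in wild type and 36070 to 40150 in deleted crypts. Cyp1a1, a xenobiotic-metabolising enzyme, rose by 3.66 (log2, SE 0.255, n = 2, limma adjusted p = 0.0134), and Ahrr (2.97) and Nqo1 (1.56) did not pass. The part of these cell markers and of the xenobiotic response in the crypt values of the members was not tested.

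In organoids 3 of 12 immune markers were well above background in both wild type cultures, and the summed immune level was 1576 to 1659 in wild type and 1528 to 1617 in deleted cultures. Over all genes tested in organoids, 47.6% were below 0. Proliferation markers were below 0 in 16 of 16 in deleted organoids (median -0.93, summed level 123900 to 162700 in wild type and 52250 to 94530 in deleted cultures). Under the slide block 5 of the 16 passed limma's adjusted threshold as lower, against 1.55% of all probes, and 0 passed without the block. Without R-spondin 12 of 13 proliferation markers were past 2-fold lower (median -2.62), against 5.76% of all probes. Stem cell markers were below 0 in 6 of 7 in deleted organoids (median -1.03), and their summed level was 22090 to 34460 in wild type and 10000 to 12310 in deleted cultures. Under the slide block 4 of these 7 passed limma's adjusted threshold as lower and 1 as higher, against 1.55% and 1.26% of all probes. Without the block 0 of the 7 passed. Paneth cell markers were below 0 in 8 of 8 in deleted organoids, with a median of -0.84. Their summed levels overlapped, at 141700 to 415500 in wild type and 104200 to 220200 in deleted cultures. Under the slide block 1 of the 8 (Cd24a) passed limma's adjusted threshold as lower, and without the block 0 passed. The Paneth median without R-spondin was -0.31. Without R-spondin 5 of 7 stem cell markers were past 2-fold lower and 1 past 2-fold higher, against 5.76% and 4.22% of all probes. The part of these cells in the organoid values of the members was not tested.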

How the data were processed

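Spot intensities were read from the authors' scanner files, which per the file headers came from Agilent Feature Extraction 10.5.1.1 and per the submitters' processing notes from version 8.5.1.1. The deposited series matrix holds log10 ratios equal to the scanner files' own log10 ratios. Columns were turned in sign for the 2 crypt arrays with deleted RNA in Cy3. The members, gene lists and tests were chosen with earlier results of these data known. Intensities were background-corrected by normexp with an offset of 50 in limma 3.58.1 (R 4.3.3, data.table version 1.17.8). Control spots and spots marked as outliers by the scanner software were left out. Ratios were loess-normalised within arrays, and the dye-exchanged arrays of a crypt replicate were averaged. Deleted and wild type organoids were compared in Cy5 after quantile normalisation, because of the Cy3 channel described above. The files of these 4 arrays give spot medians, and those of the other arrays give means. Testing was limited to probes that the scanner software called well above background throughout 1 or both groups. In all, 40.2% to 63.1% of gene spots were above background in Cy5, and no spot was saturated. In Cy3 the share was 3.66% to 4.26% on the 4 organoid deletion arrays. The number of arrays limits the precision, and crypt replicate 1 was the less clean, as described above. Tests were limma's moderated linear models, two-sided, with Benjamini-Hochberg adjustment over all probes, and were tested on simulated data. Gene lists use the brightest probe of a gene, and the list genes named in crypts are the 4 farthest from 0 in each list, of which some are not reported here. Likeness names the 4 nearest genes; a likeness neighbour of Sox4 without a gene name (NAP070876-1, 0.161) is left out of the report. Probes were named through RefSeq accessions (25097 of 41174), current symbols (6333) or older symbols (1640), and 8104 kept the file's name. The Apc deletion named by the series was not analysed here.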

Additional observations from a re-analysis of the deposited data

Results flagged for a closer look

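In all, 64 members and genes of the lists around them were checked for opposite directions. Of these, 5 went one way in both crypt replicates and the other way in every deleted organoid culture against every wild type culture. The share of all genes that did so was not counted. These differences between crypts and organoids were not tested. The Wnt target Sp5 was 0.33 in deleted crypts (0.07 and 0.58 in the replicates) and -1.07 in deleted organoids. The Wnt target Gpx2 was 0.39 in crypts and -0.96 in organoids. The ETS factor Ets1 was 0.66 in crypts and -0.47 in organoids. The ETS factor Elf1 was -0.033 in crypts and 0.18 in organoids, and the kinase Wnk4, which regulates SLC12 cotransporters, was -0.11 in crypts and 0.47 in organoids. None of the 5 members was among them.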

How the results depend on the processing

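Some alternatives to the processing change only the test or the probes included. They repeat the reported member values, so the sign could not change there. Over all alternatives, those included, 86 of 86 crypt, 86 of 88 organoid and 49 of 49 R-spondin member values kept their sign. The exceptions were Cd44 A_52_P229536 in organoids, at 0.012 by the ratio to the Cy3 reference and 1.28 in the deposited series matrix, which holds ratios to the same channel. The cause was not tested. The crypt calls depend on the setting, with 1 probe lower and 9 higher as reported. For lower and higher in turn the counts were 234 and 323 with the slide as a random block, 456 and 461 by the scanner software's processed signals, 139 and 263 by the series matrix, 74 and 144 with the deleted RNA in Cy3 only, 24 and 63 in Cy5 only, 11 and 52 with crypt and organoid ratios in one fit, 19 and 57 without background correction, 18 and 60 with median spot signals (added after seeing the data), 10 and 27 with marked spots kept, 0 and 5 for the brightest probe per gene, and 0 and 0 without the filter on dim probes. Leaving out a replicate gave 0 to 2 in either direction. Sox4 could not be fitted there for want of organoid ratios.

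Slc12a2 in crypts passed limma's adjusted threshold at -1.59 with the random block and in the joint fit, -1.88 (Cy5 only), -1.61 (series matrix), -1.59 (median signals), -1.53 (no background correction) and -1.56 (processed signals), over adjusted p of 0.000449 to 0.531 in all alternatives. Cd44 A_52_P229536 passed at -1.37 (random block), -1.50 (Cy3 only), -1.40 (series matrix) and -1.35 (processed signals). Sox9 A_52_P577484 passed at -1.23 (random block), -1.29 (series matrix) and -1.24 (processed signals), and Sox4 at -1.20 (processed signals).

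In organoids 2 probes were lower and 5 higher as reported. For lower and higher the counts were 289 and 235 with the slide as a block, 63 and 48 by processed signals, 4 and 19 by the series matrix, 0 and 0 by the loess ratio, 0 and 2 without background correction, without the filter and with marked spots kept, and 1 lower for the brightest probe per gene. Leaving out 1 culture gave 1 to 38 lower and 3 to 82 higher, the most without wild type replicate 1. With the slide block Slc12a2 passed at -2.39 and Sox9 A_52_P577484 at -1.94. Leaving out 1 culture, Slc12a2 ranged from -3.29 to -1.50 and passed without deleted replicate 2 (limma adjusted p = 0.0369), with adjusted p from 0.00761 to 1 over all alternatives. By the series matrix the organoid values were smaller, at -0.91 for Slc12a2, -0.52 and -0.47 for the Sox9 probes, -0.07 for Cd44 A_52_P523459 and -0.04 for Sox4 and for Ets2.

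Without R-spondin, a member value counted as moved where its shift exceeded the Cy5 difference between the 2 wild type organoid cultures for that probe. This is a single observed difference, from other arrays, and not a measured spread. It was small for Sox9 A_52_P214630 (10.80 and 10.70) and large for Sox9 A_52_P577484 (10.69 and 11.61). Slc12a2 was -3.98 by Cy5 alone. Cd44 A_52_P523459 was -2.81 by the series matrix, -1.81 without background correction and -2.75 by processed signals. Sox9 A_52_P214630 was -2.953, -2.523 and -2.895 in the same order. By the series matrix and by processed signals, the dim probes came past 2-fold. Cd44 A_51_P407053 was -1.695 and -1.636 there, and Sox9 A_51_P451606 was -1.318 and -1.259. Past 2-fold, 1399 probes were lower and 1026 higher as reported, against 2385 and 1929 by the series matrix and 2061 higher by processed signals. The number of arrays, 2 replicates per group or 1, limits every value.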
